A study of Sus scrofa with 24 samples.

Results

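The 8 fetal livers with the highest level of IFI6 were compared with the 8 livers with the lowest level, out of 24 livers in all. IFI6 is a gene that type I interferons switch on, and it served as the marker of an interferon signal. The groups were chosen by the measured IFI6 level alone, so they are not groups of the study, and no treatment, infection or growth class is implied by their names. The livers came from F2 fetuses of a German Landrace and Pietrain cross at 63 days post conception (dpc), and the study set littermates with intrauterine growth restriction (IUGR) beside littermates of appropriate weight (AGA). The labels give each array a fetus number only, so growth group, sex and dam are not known for either group here. RNA of whole liver was hybridized to 1 Affymetrix Snowball pig array per fetus, and the values are log2 levels, in which a difference of 1 is a doubling. Some fetuses share a dam, so the tests below, which treat the livers as independent, give approximate p-values, and they measure the spread between these livers only. The fetus numbers ran from 320 to 384 in the highest livers and from 274 to 338 in the lowest. The labels do not say what the numbers follow, so litter or sampling order cannot be told apart from IFI6 level here.

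Interferons are secreted proteins that warn cells of viral RNA or DNA. They bind receptors on the cell surface, and the Janus kinases (JAK) then activate signal transducers, among them STAT2, which with IRF9 enter the nucleus and switch on interferon-stimulated genes. These genes encode proteins that block viruses, sensors that detect viral RNA, the ubiquitin-like protein ISG15 with its enzymes, and parts of antigen presentation. The fetal liver holds hepatocytes and, at this stage, many developing blood cells, and both can respond to interferon.

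IFI6 was measured by 1 named probe set. In the 8 highest livers its log2 level was 9.69 in fetus 360, 9.28 in fetus 355, 8.28 in fetus 363, 8.16 in fetus 320, 8.15 in fetus 329, 8.07 in fetus 384, 7.89 in fetus 352 and 7.80 in fetus 376. In the 8 lowest livers it was 6.58 in fetus 327, 6.57 in fetus 307, 6.47 in fetus 313, 6.33 in fetus 338, 6.09 in fetus 311, 5.99 in fetus 274, 5.98 in fetus 297 and 5.29 in fetus 312. Fetuses 360 and 355 thus stood above all other livers, and fetus 312 stood below them. The limits of the groups fell at no clear gap. The highest liver left out on the upper side had 7.68, against 7.80 for the last liver taken in, and on the lower side the values were 6.60 and 6.58. The group means, 8.41 and 6.16, differed by 2.25, which describes how the groups were made and was not tested.

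**Figure D1:**
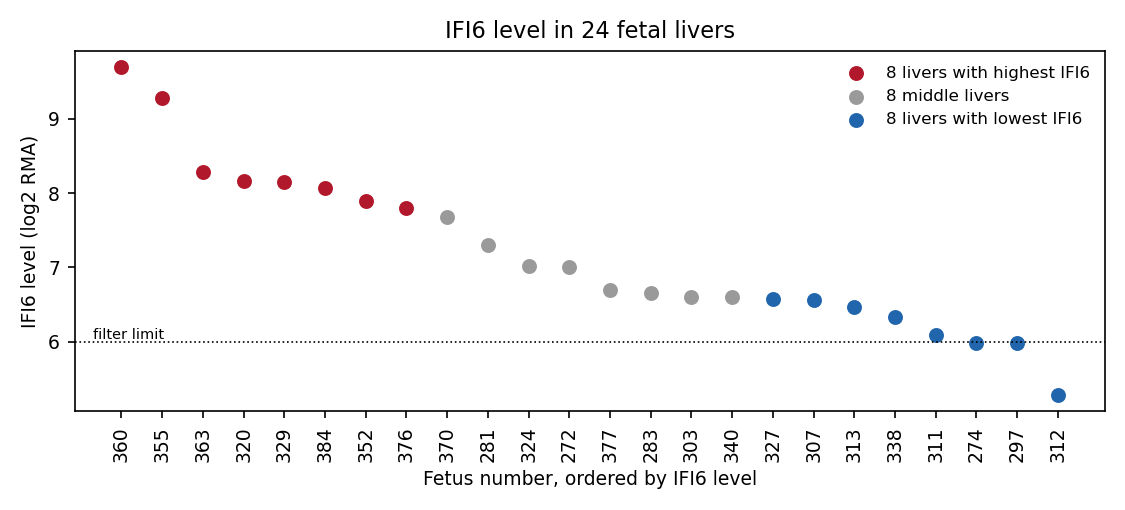
IFI6 level (log2) of each of the 24 livers, ordered from highest to lowest, with the fetus number on the horizontal axis and the filter limit of 6 as a dotted line. Fetuses 360 and 355 lie at 9.69 and 9.28, and the 8 middle livers run from 6.60 to 7.68 without a gap to the lowest group.

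The array medians lay between 2.81 and 2.89, and the median of the 69 background control probe sets lay between 1.48 and 1.62 in both groups. None of 4 array measures (array median, background control level, slope of the controls on GC number and correlation with the median array) differed by an exact two-sided permutation test, with p-values from 0.219 to 0.831 and adjusted p-values from 0.574 to 0.831. The 95th percentile of the background controls was 6.52 to 6.89 on the different arrays. Most interferon-stimulated genes had levels below this range, where part of the measured signal can be background, so differences of such genes may be understated.

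Among the genes that passed a filter on level, no gene was called different between the groups. The filter limit lies below the upper range of the background controls. The comparison covered 3378 genes with a log2 level of at least 6 in 18 or more of the 24 arrays, 1 probe set per gene. With limma and Benjamini-Hochberg adjustment over these genes, 0 genes were higher (0%) and 0 were lower (0%) in the highest IFI6 livers at an adjusted p below 0.1. At an unadjusted p below 0.05, 70 genes were higher (2.07%) and 109 were lower (3.23%). The smallest adjusted p was 0.54, for PSPH, which encodes the last enzyme of serine synthesis and whose median was 5.99 in the lowest and 6.41 in the highest livers, with a difference of the means of 0.43 with a standard error of 0.09. AKR1C1, an aldo-keto reductase, had a difference of 0.67, with an adjusted p of 0.70.

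The filter removed most of the genes in question. Of 120 genes in 7 lists of the interferon pathway that had a named probe set, 21 passed it. The comparison was therefore also made without the filter, over 13754 genes. Here 1 gene, MX1, was higher (0.00727%) and 0 genes were lower (0%) at an adjusted p below 0.1. At an unadjusted p below 0.05, 338 genes were higher (2.46%) and 418 were lower (3.04%).

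MX1 encodes a GTPase that traps incoming viral particles and is a standard readout of type I interferon. Its level in the 8 highest IFI6 livers ran from 5.83 to 8.27 with a median of 6.10, and in the 8 lowest livers from 3.77 to 4.57 with a median of 4.44. The groups did not overlap, and the 8 middle livers, at 4.11 to 5.59, lay mostly near the lowest group. The means differed by 2.09 with a standard error of 0.28, or 4.25-fold, at an adjusted p of 0.0062. Without fetus 360, which had the highest level, the difference was 1.82, and without fetuses 360 and 355 it was 1.72. The call was lost with 6 livers in each group, where the difference was 2.17 and the adjusted p 0.195.

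Without the filter, 7 genes were higher in every one of the 8 highest livers than in any of the 8 lowest livers (0.0509% of all genes). They were MX1, IFI44, DDX58, IRF9, HERC6, ISG12(A) and ZC3HAV1, all of them known to be interferon-stimulated or antiviral. The difference of ZC3HAV1 was only 0.18, and the groups were separate in 1 of its 4 probe sets. In the other direction, 3 genes were lower in every one of the highest livers (0.0218%), PCTP, PITPNC1 and SDS, which bind phospholipids or, for SDS, break down serine. Apart from MX1, none of these 10 genes was called by limma after adjustment with all 16 livers. Without fetus 360, IFI44, DDX58 and HERC6 were called at an adjusted p of 0.020 each, and IRF9 at 0.079. Outside these 10 genes, ISG15, MX2 and LIPM were then called as well, and LIPM is in no interferon list.

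IFI44, an interferon-stimulated gene of the cytoplasm, ran from 4.79 to 7.42 with a median of 5.49 in the highest livers and from 3.26 to 4.77 with a median of 4.12 in the lowest. The groups did not overlap, but were separated only by the step from 4.77 to 4.79. The difference was 1.67 with a 95% interval of 1.05 to 2.28 and an adjusted p of 0.15. ISG12(A), which belongs to the same small family of interferon-induced proteins as IFI6, ran from 4.54 to 7.39 with a median of 5.24, against 2.07 to 4.44 with a median of 4.07. Its difference, 1.92, was the second largest among the interferon genes described here, with an adjusted p of 0.29.

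The relatives and partners of MX1 among the antiviral effectors showed smaller differences. MX2, a second GTPase of this family, ran from 4.74 to 7.38 in the highest and from 4.21 to 4.80 in the lowest livers, and 7 of the 8 highest livers lay above all lowest ones. OAS2, which makes oligoadenylates when it binds double-stranded RNA, ran from 6.25 to 8.94 with a median of 6.67, against 5.59 to 6.46 with a median of 6.05. The OAS2 difference was 1.03 with an adjusted p of 0.63, and its 3 probe sets gave differences of 1.02 to 1.29. OAS1 ran from 3.28 to 7.18 and from 2.73 to 3.76, a difference of 0.83 that was 0.40 without fetus 360. EIF2AK2, the kinase PKR that halts translation on viral RNA, had a difference of 0.85 by 1 of its 2 probe sets. The other probe set gave -0.07, at a mean level of 1.58, near the background control median of 1.55.

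Over the whole list of 35 antiviral effectors with a probe set, 30 had a positive difference (85.7%), against 48.2% of all genes. Of the list 1 gene, MX1, was called, the only one among all 13754 genes. An unadjusted p below 0.05 was found for 15, all higher, against 2.46% of all genes in this direction. The median difference was 0.39, against -0.004 over all 13754 genes. It was 0.25 without fetus 360 and 0.20 without fetuses 360 and 355. The IFIT genes, some of whose proteins bind viral RNA ends, overlapped between the groups. Their differences were 0.39 for IFIT1, 0.65 for IFIT2, 0.56 for IFIT3 and 0.33 for IFIT5. Without fetus 360 these were 0.20, 0.43, 0.35 and 0.19. RSAD2, which encodes viperin, had medians of 3.51 in both groups and a difference of the means of 0.38, and BST2, which tethers budding virus, had a difference of 0.15.

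**Figure D2:**
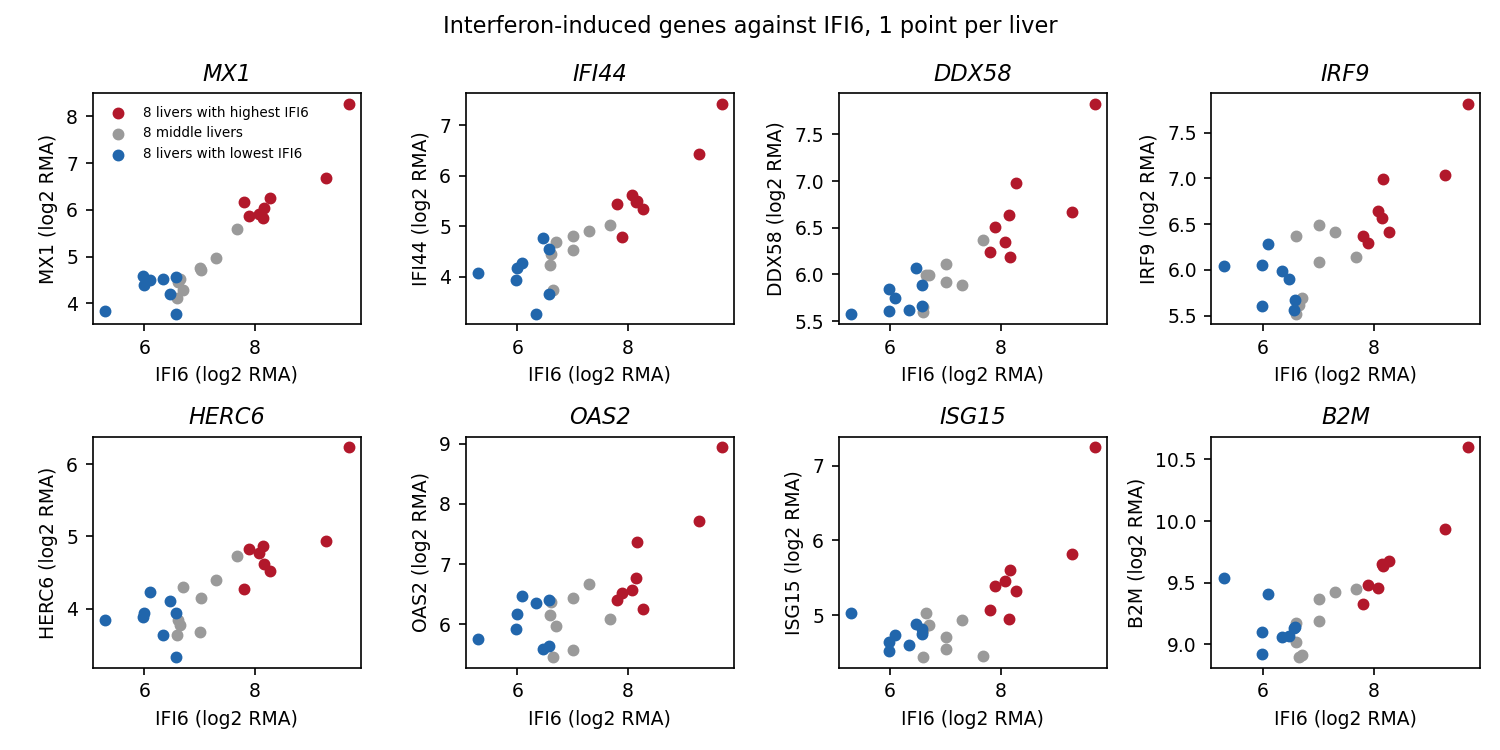
Log2 level of 8 genes against the log2 level of IFI6, with 1 point per liver and colours for the highest, middle and lowest IFI6 livers. The groups do not overlap for MX1, IFI44, DDX58, IRF9 and HERC6, and fetus 360, at an IFI6 level of 9.69, is the highest point in every panel.

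Of the RNA sensors, DDX58 (RIG-I), which detects viral RNA ends in the cytoplasm, ran from 6.18 to 7.83 with a median of 6.58 in the highest livers and from 5.58 to 6.07 with a median of 5.70 in the lowest. The groups were separate for this probe set, with a difference of 0.93, a 95% interval of 0.55 to 1.30 and an adjusted p of 0.22. All 3 of its probe sets gave differences of 0.91 to 0.94, but the groups overlapped in all except 1 of them. IFIH1 (MDA5), the sensor of long double-stranded RNA, ran from 3.45 to 5.29 against 2.62 to 3.64, a difference of 0.74. TLR3, the endosomal sensor of double-stranded RNA and the list's most strongly expressed tested member, overlapped between the groups at 7.85 to 8.56 and 7.63 to 8.19. The adaptor MAVS, through which RIG-I and MDA5 signal, had a difference of -0.03 with an interval of -0.23 to 0.17. Of 16 sensors and adaptors, 10 had a positive difference, against 48.2% of all genes, and 3 were higher at an unadjusted p below 0.05, against 2.46%. The median difference was 0.08, and 0.05 without fetus 360.

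In the signalling chain, IRF9 was the gene with separate groups. It ran from 6.29 to 7.81 with a median of 6.60 in the highest and from 5.57 to 6.28 with a median of 5.94 in the lowest livers, a difference of 0.88 with a standard error of 0.18 and an adjusted p of 0.22. Its partner STAT2 had medians of 7.87 and 7.71 and a difference of 0.06 with an interval of -0.16 to 0.28. The receptor chain IFNAR1 had a difference of -0.15 with an interval of -0.35 to 0.04, IFNAR2 one of -0.05, and the kinase JAK1 one of -0.07. The lowest difference of the list was -0.35, for IL10RB, a chain of the receptors for interleukin 10 and interferon lambda. Whether any of these genes differs from IRF9 in this was not tested. Over the 22 signalling genes, 11 had a positive difference (50%), against 48.2% of all genes, and the median was -0.02. The interferon genes with a named probe set, IFNG and IFNE, had levels of 1.58 or below in every liver of both groups, near the median of the background controls. IRF7, IFNA1 and IFNB1 were not analysed here.

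The ISG15 system attaches a small ubiquitin-like protein to other proteins during the antiviral response. ISG15 ran from 4.95 to 7.24 with a median of 5.42 in the highest livers and from 4.52 to 5.02 with a median of 4.74 in the lowest, a difference of 0.86. HERC6, which acts as the ISG15 ligase in mouse, ran from 4.28 to 6.23 against 3.33 to 4.23, and these groups were separate, with a difference of 1.02 and an adjusted p of 0.22. USP18, which removes ISG15 and dampens receptor signalling, had a difference of 0.73. The activating enzyme UBA7 had a difference of 0.24 and the conjugating enzyme UBE2L6 one of 0.02. The median over these 5 genes was 0.73.

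MHC class I molecules present peptides from inside the cell, and no gene of this list was called between the groups. B2M, the invariant light chain of class I molecules, ran from 9.32 to 10.60 with a median of 9.65 in the highest livers and from 8.92 to 9.54 with a median of 9.12 in the lowest. In 5 of the 8 highest livers it lay above all lowest ones, and the difference was 0.55 with an interval of 0.25 to 0.85 and an adjusted p of 0.70 among the filtered genes. The class I heavy chain gene SLA-1 had a difference of 0.40, SLA-2 one of 0.36 and SLA-3 one of 0.20. Of the 3 probe sets of SLA-1, 2 were higher in the highest livers. The lower one had a mean level of 1.87, against 7.45 for the one used. Near-identical heavy chain genes may share probes. The peptide transporter TAP1 had a difference of 0.03, and its 4 probe sets gave 0.03 to 0.28. The immunoproteasome subunit PSMB8 had one of 0.10, but only 2 of its 8 probe sets were higher, with a range of -0.29 to 0.10. Of 17 class I genes, 13 had a positive difference (76.5%), against 48.2% of all genes. Their median difference was 0.12, and 0.05 without fetus 360. Of 11 class II genes, 6 had a positive difference (54.5%), with a median of 0.04 that was -0.04 without fetus 360. CIITA, the master regulator of class II, had -0.11.

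Chemokines and guanylate-binding proteins, which respond to interferon gamma as well, were mixed. CXCL10, which draws T cells, ran from 2.56 to 6.04 with a median of 3.30 in the highest livers and from 1.60 to 2.93 with a median of 2.38 in the lowest, a difference of 1.44 with an adjusted p of 0.49. CXCL9 lay at 1.32 or below in every lowest liver and reached 3.22 in fetus 360, with medians of 1.13 and 1.15. GBP1 had a difference of 0.05 and GBP2 one of 0.11. The 15 genes of this list had a median difference of 0.11, which was 0.015 without fetus 360 and -0.01 without fetuses 360 and 355.

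Of the 120 genes in all 7 interferon lists, 84 (70.0%) had a positive difference, against 48.2% of all genes. An unadjusted p below 0.05 was found for 28, all of them higher, against 2.46% of all genes in this direction. The median difference was 0.12. It was 0.05 without fetus 360 and 0.03 without fetuses 360 and 355, so the shift of the lists as a whole was much smaller without these livers. It was 0.17 without fetuses 311 and 312.

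**Figure D3:**
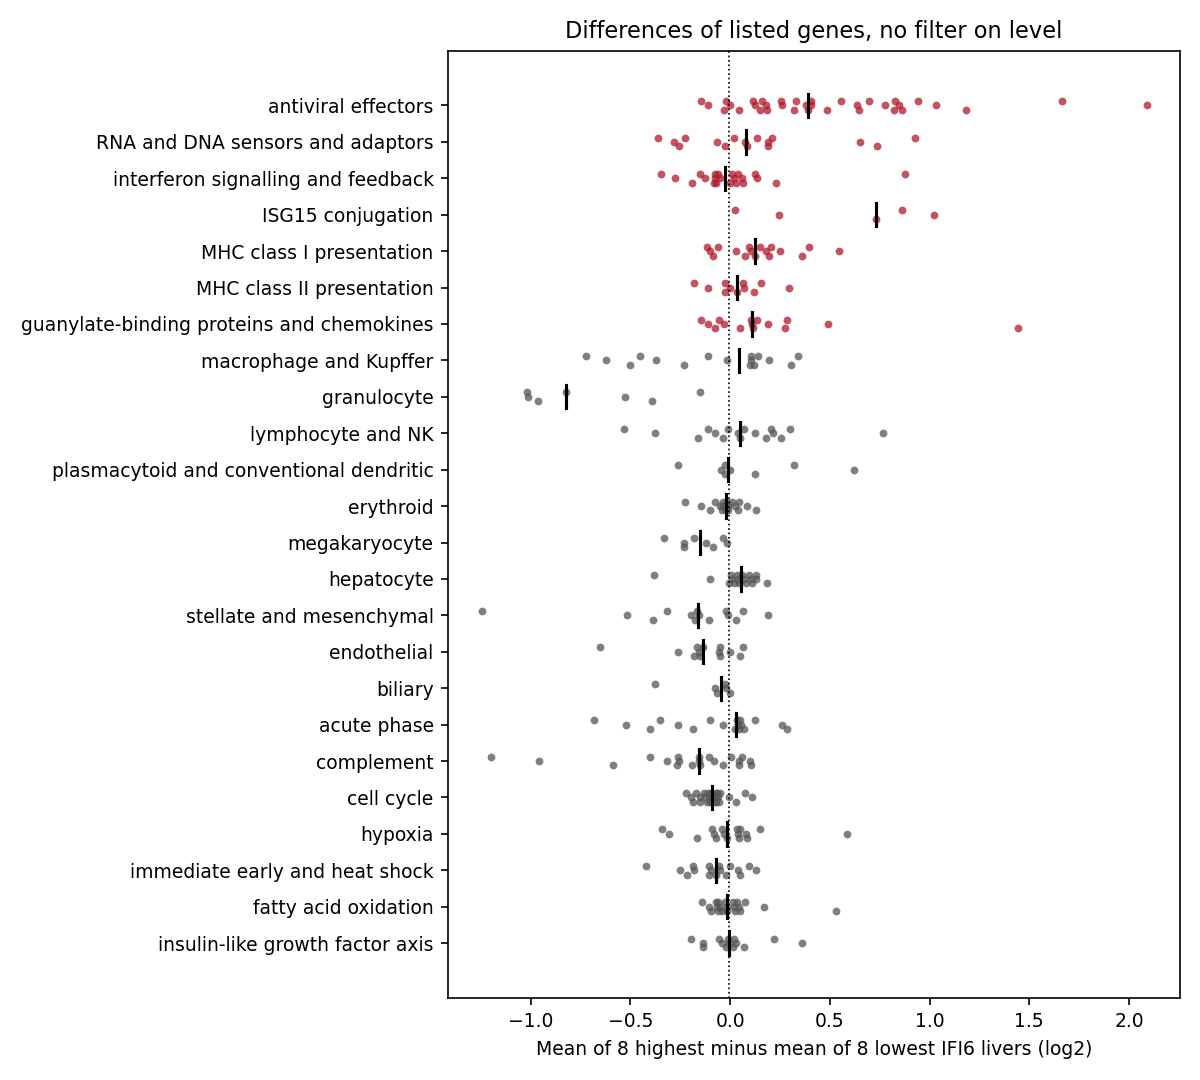
Difference between the means of the 8 highest and the 8 lowest IFI6 livers (log2, no filter on level) for each gene of 24 lists, with 1 point per gene, interferon pathway lists in red, and a black bar at each list's median. The medians of the antiviral effectors and the ISG15 system are 0.39 and 0.73, that of the granulocyte genes is -0.82, and the dotted line marks the median of all genes, -0.004.

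IFI6 was also used as a continuous measure over all 24 livers. A slope is the change of a gene's log2 level per unit of IFI6 log2 level. Among the 3378 filtered genes, 1 gene was called with a positive slope (0.0296%), B2M, and 0 with a negative slope (0%). The B2M slope was 0.28 with a standard error of 0.04 and an adjusted p of 0.0037. Without fetus 360 it was 0.21 and the adjusted p 0.256, so the call was lost among the filtered genes. Over all 13754 genes without fetus 360, B2M was called at an adjusted p of 0.099. Without fetuses 360 and 355 the slope was 0.18 and was called in neither setting. Without fetuses 311 and 312 it was 0.36 and was called in both.

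Without the filter, a setting combined with the slope after the data were seen, 27 genes had a positive slope (0.196%) and 5 a negative slope (0.0364%). Of the 27, 23 belong to the interferon lists, which hold 120 of the 13754 genes. These lists were chosen with earlier results of these data known, so the 23 are no independent support. The others were ISG12(A), SIGLEC1, ICA1L and LOC100513313. Of the 27 genes, 26 had their highest level in fetus 360. The largest slopes were those of MX1, 0.94, ISG12(A), 0.89, IFI44, 0.76, and CXCL10, 0.74. Of the 27 genes, 15 kept their call without fetus 360 and 25 without fetuses 311 and 312. Without both fetus 360 and fetus 355, 6 kept it, MX1, IFI44, DDX58, MX2, RTP4 and HERC6, with slopes of 0.86, 0.63, 0.38, 0.43, 0.37 and 0.39. RTP4 encodes an interferon-induced receptor transporter protein. The 5 genes with a negative slope, PGM1, SORL1, SQRDL, UBXN11 and WDTC1, are in none of the interferon lists, and 0 of them kept the call without fetus 360.

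**Figure D4:**
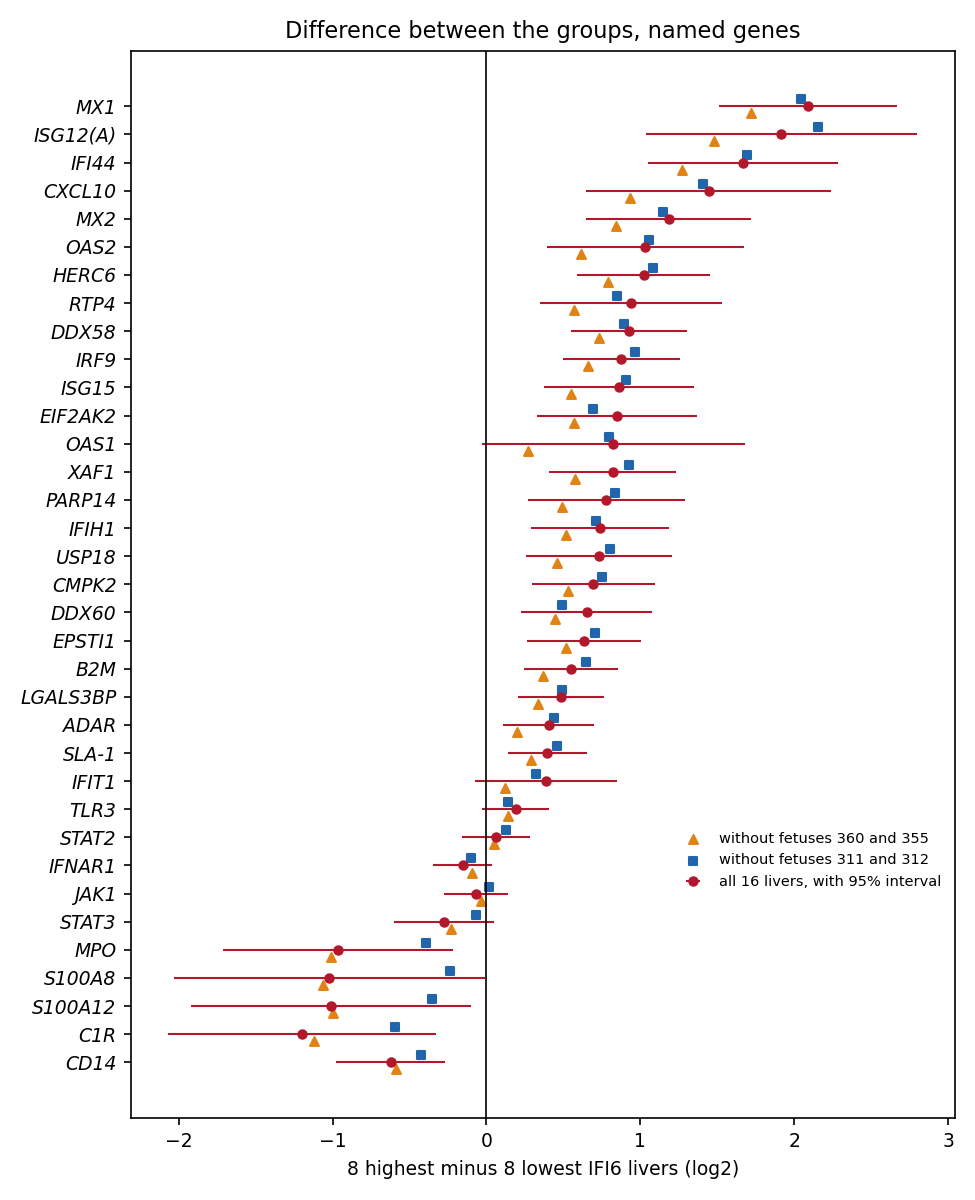
Difference between the 8 highest and the 8 lowest IFI6 livers (log2, no filter) for 35 named genes, as points with 95% intervals, with triangles for the value without fetuses 360 and 355 and squares for the value without fetuses 311 and 312. MX1 moves from 2.09 to 1.72 without fetuses 360 and 355, while S100A8 moves from -1.02 to -0.24 without fetuses 311 and 312.

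The 8 middle livers took no part in the comparison of the highest with the lowest livers, but they entered the slopes over 24 livers. They span IFI6 levels of 6.60 to 7.68. Over these livers 0 of 13754 genes (0%) had a slope on IFI6 at an adjusted p below 0.1 by limma. At an unadjusted p below 0.05, 289 genes had a positive slope (2.1%) and 202 a negative one. The slope of MX1 was 1.14, that of RTP4 0.91, and those of IFI44 and HERC6 0.79 each, at adjusted p-values of 0.45 for MX1 and 1 for the others. Of the 120 interferon genes, 86 (71.7%) had a positive slope, against 54.5% of all genes, and the median slope was 0.13 against 0.02. Of the 120 genes, 10 had an unadjusted p below 0.05 with a positive slope and 1 with a negative slope. The lists were chosen with earlier results of these data known, so these shares are no independent support. MX1, RTP4, IFI44 and HERC6 were called above by slopes that include these middle livers, so their values are not independent either. The slopes of DDX58 and MX2 over the middle livers are not given here. ISG15 had a slope of -0.17 there, so the genes named above did not all follow IFI6 in the middle range.

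The genes with the most negative differences included markers of granulocytes, white blood cells that form in the fetal liver. MPO, the peroxidase of neutrophil granules, ran from 6.97 to 7.58 with a median of 7.35 in the highest livers and from 7.28 to 10.36 with a median of 7.85 in the lowest. S100A8, which encodes a subunit of calprotectin, ran from 6.60 to 7.26 with a median of 6.71, against 6.47 to 10.31 with a median of 7.22. In both genes fetuses 311 and 312, which belong to the lowest IFI6 group, lay far above all other livers. The differences were -0.97 for MPO, -1.02 for S100A8, -1.01 for S100A12 and -0.82 for S100A9, none of them called, with adjusted p-values of 0.87, 0.91, 0.91 and 0.95 among the filtered genes. Without fetuses 311 and 312 they were -0.39, -0.24, -0.35 and 0.0045. The mean log2 level of these 4 genes was 7.05 to 7.72 in the highest livers and 6.98 to 10.40 in the lowest, with medians of 7.21 and 7.56. Of the 7 granulocyte genes with a probe set, all 7 had a negative difference, against 7128 of all 13754 genes. Against 3.04% of all genes in this direction, 4 of these 7 genes had an unadjusted p below 0.05. Their median difference was -0.82, and -0.14 without fetuses 311 and 312. In whole liver, fewer granulocytes and less of these RNAs per cell cannot be told apart.

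**Figure D5:**
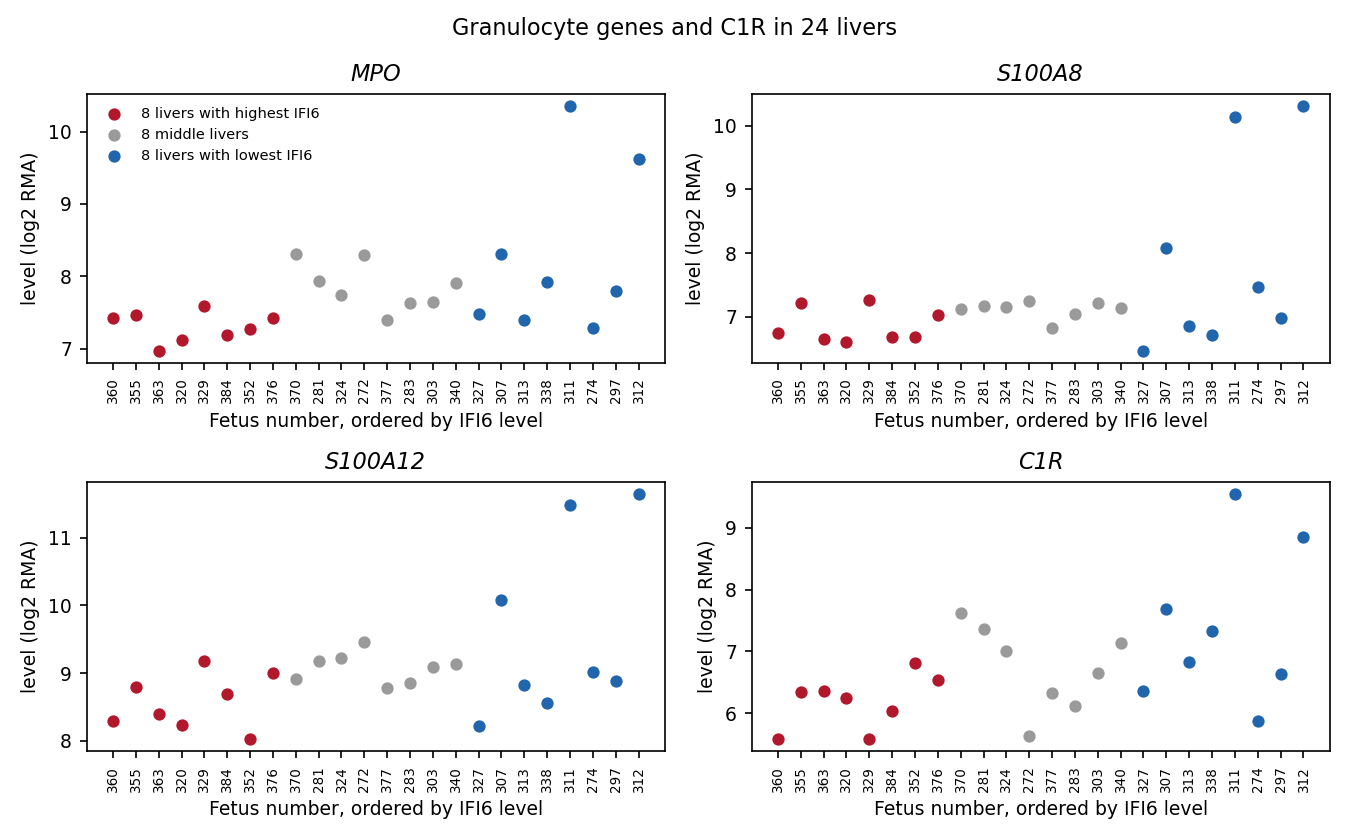
Log2 levels of MPO, S100A8, S100A12 and C1R in each of the 24 livers, ordered by IFI6 level from highest to lowest. Fetuses 311 and 312, both in the lowest IFI6 group, have S100A8 levels near the group maximum of 10.31, while all highest IFI6 livers lie at 7.26 or below.

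C1R, SRGN and CD14 were also highest in fetus 311. C1R, a protease that starts the classical complement pathway, ran from 5.58 to 6.81 with a median of 6.30 in the highest livers and from 5.87 to 9.54 with a median of 7.08 in the lowest, a difference of -1.20 that was -0.59 without fetuses 311 and 312. SRGN, the proteoglycan of blood cell granules, had a difference of -1.12, and -0.57 without them. CD14, a receptor of monocytes and macrophages, had a difference of -0.62 with an interval of -0.98 to -0.27 and an adjusted p of 0.57, and -0.42 without them. The macrophage scavenger receptor CD163 had a difference of -0.02, and the 16 macrophage genes a median of 0.04. SIGLEC1, a macrophage receptor that interferon induces, had a difference of 0.34. Of the 16 macrophage genes, 8 had a positive and 8 a negative difference, against 48.2% positive among all genes. At an unadjusted p below 0.05 by limma, 3 were higher and 2 lower, against 2.46% and 3.04% of all genes. The part of granulocyte content in the differences of other genes was not tested.

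The medians of the remaining lists lay between -0.16 and 0.05. The 18 hepatocyte genes had a median difference of 0.05 and the 18 erythroid genes, which mark red cell precursors, one of -0.02. SERPINA1, the most strongly expressed hepatocyte gene tested, and HBB, the beta chain of haemoglobin, were not called. The medians were 0.05 for 17 lymphocyte genes, -0.01 for 8 dendritic cell genes, -0.15 for 8 megakaryocyte genes, -0.16 for 14 stellate and mesenchymal genes, -0.13 for 13 endothelial genes and -0.04 for 6 biliary genes. Of 26 cell cycle genes 3 had a positive difference (11.5%), against 48.2% of all genes, with a median of -0.09. At an unadjusted p below 0.05, 1 of them was lower, against 3.04% of all genes. Differences were negative for 8 of 8 megakaryocyte, 6 of 6 biliary and 11 of 13 endothelial genes, against 7128 of all 13754 genes. They were also negative for 11 of 14 stellate and mesenchymal and 15 of 21 complement genes. By limma at an unadjusted p below 0.05, lower genes numbered 2, 1, 3, 2 and 4 in these lists, again against 3.04%. By contrast, 15 of 18 hepatocyte genes had a positive difference, against 48.2% of all genes. The medians were 0.03 for acute phase genes, -0.15 for complement, -0.01 for hypoxia, -0.07 for immediate early and heat shock genes, -0.02 for fatty acid oxidation, -0.01 for the insulin-like growth factor axis and -0.07 for the 2 sex-linked genes. No gene of these lists was called.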

How the data were processed

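The authors hybridized liver RNA of 24 fetuses to Affymetrix Snowball arrays, used GCOS 1.1.1 for quality control, and deposited log2 values made with RMA in Expression Console, which corrects background, equalizes array distributions and summarizes probe sets. The genome build behind the probe design was "not given in the sources used here". The deposited table holds 47845 probe sets, of which 26426 have 1 gene symbol in the platform annotation. Detection calls were not used, and arrays carry no depth: their number limits the precision.

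The 8 arrays highest in IFI6 were compared with the 8 lowest by limma 3.58.1 (R 4.3.3), with lmFit and eBayes, two-sided, and Benjamini-Hochberg adjustment over all genes tested. The threshold of 0.1 is that of the study's methods. A gene was kept at a log2 level of at least 6 in 18 arrays, with its probe set of highest mean, and IFI6 was left out. The terms of the study's model (group, sex, dam) could not enter. Single values were tested by exact permutation. The fit was tested on simulated data with 200 changed genes.

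The members and the 25 gene lists were chosen with earlier results of these data known. Of the list symbols, 4 were matched through older names. The naming rule covered IFI6, called genes, each list's called members and its tested member with the highest mean, and interferon genes that failed the filter. The other genes named were chosen after their values were seen. Alternatives were other filters, group sizes, probe set rules, scalings, covariates, tests and arrays left out. The unfiltered forms of the alternatives, the removal of fetuses 360 and 355, the granulocyte term and the slopes with arrays left out were added after seeing the data. Figures used matplotlib 3.10.9, and tables Python 3.11.15, numpy 2.4.6 and pandas 2.3.3.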

Additional observations from a re-analysis of the deposited data

Results flagged for a closer look

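Within each group of 8 livers, 40 genes were searched for a liver far from the others, by the gap to its neighbour as a share of the group's range, with Dixon's critical value of 0.526. In random samples this rule flags about 1 in 20 groups. The livers here were ranked by IFI6 level, with fetus 360 first, and many of the genes rise with IFI6. That rate therefore does not apply to them. Of 80 groups, 8 were flagged. In 7 of the 8 the liver was fetus 360, in the highest IFI6 group. Its log2 level was 8.27 for MX1, 7.24 for ISG15, 7.18 for OAS1, 6.61 for CMPK2, 7.59 for ZC3HAV1, 5.29 for IFIH1 and 6.23 for HERC6, each the highest of the group. The remaining one was PARP14, at 2.58 in fetus 338, the lowest value of the lowest IFI6 group. The rule measures the gap to the nearest liver, so it cannot flag livers that stand apart together. Fetuses 311 and 312, with mean granulocyte gene levels of 10.40 and 10.37, are such a pair. The genes were chosen after their values were seen, and they share the same livers, so the flags are not independent of each other.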

How the results depend on the processing

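With the filter at 6, the count of 0 genes in each direction held with limits of 5 and 7, a threshold of 0.05, 6 or 12 livers a group, other probe set rules, aligned medians, background and principal component terms, trend and robust fitting, and without fetus 274, fetus 360, fetuses 360 and 355, or fetuses 311 and 312. It was 1 higher with no filter (MX1), 1 with the slope (B2M), 2 with the slope without fetuses 311 and 312 (B2M and SLA-1), and 1 lower with the granulocyte term (AMMECR1). Leaving out 1 liver gave 0 to 2 higher and 0 to 1 lower, the maxima without fetus 338 (PSPH, PISD and BTBD1). With the slope, 1 member of the class I list and 1 of all interferon lists were called. With no filter, the count of 1 higher became 0 with 6 livers a group, 2 with 12, 3 without fetus 274, 4 with the background term, 8 without fetus 360 and 6 without fetuses 360 and 355. Some of the added genes are in no interferon list. They were Mir15a and SLC2A12 without fetus 274, MOBP with the background term, and LIPM without fetus 360 and without fetuses 360 and 355. With slopes the count of higher genes was 27, 15 without fetus 360, 6 without fetuses 360 and 355 and 31 without fetuses 311 and 312, and the count of lower genes 5, 1 and 1 for the first 3 of these. Leaving out 1 liver gave 1 to 8 higher and 0 lower, with 7 without fetus 376, among them IZUMO1 and LIPM. The cause of these changes was not tested. S100A9 turned to 0.0045 without fetuses 311 and 312, and with the granulocyte term S100A9 turned to 0.27 and S100A8 to 0.032. Over 40 named genes and 1240 values under alternatives, 1114 stayed on their side of the threshold and 122 passed it. For 1 value the call was lost (MX1, 6 livers a group), and 3 changed sign. The 122 include exact permutation p-values of single genes, which were not adjusted and are not calls. For MPO (0.0070), CD14 (0.0053) and PSPH (0.00062), such a permutation p was the only value that passed. IFI6 has 1 probe set, so a mean over its probe sets gave no other value. No paired analysis was possible because the labels form 1 group with no pair numbers. Levels below about 6.5 overlap with the background controls, which limits low genes.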
